A study of Mus musculus with 24 samples.

Results

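Testes of 49-day NSun2 knock-out (KO) mice were compared with testes of 15-day wild-type (WT) mice. The comparison asks how an adult testis in which NSun2 is missing and spermatids are reduced differs from a normal juvenile testis that has not made spermatids yet. The arrays were chosen by their labels alone: 6 arrays of NSun2 KO testis at 49 days (KO49) and 6 of WT testis at 15 days (WT15), which is 12 of the 24 arrays of the series. The 6 arrays of WT testis at 49 days (WT49) serve as a second point of comparison, and KO testis at 15 days is not described for its own sake. Every animal is of the F1 generation of CBA and C57BL/6J, no treatment is given in the labels, and RNA came from whole testis. The KO mice came from 2 lines, one from the gene-trap embryonic stem cell line D014D11 and one carrying Nsun2tm1a(EUCOMM)Wtsi, and no label ties a sample to its line. The loss is not limited to a cell type. In KO49 against WT15 the genotype and the age differ together, so an effect of one cannot be told apart from an effect of the other. Nothing in the labels says whether the arrays stand for separate animals, so p-values measure only the spread between these samples, which may be technical.

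NSun2 methylates carbon 5 of cytosine in RNA, transfer RNA above all. In the mouse, the germ cells of the first wave are in meiotic prophase at 15 days, and round and then elongating spermatids appear later, so an adult testis is rich in their transcripts. Over the same weeks Sertoli cells stop dividing and mature, and the adult population of Leydig cells, which make androgens, arises from interstitial progenitors. Because RNA was read from whole testis, fewer cells of a type and less RNA per cell cannot be told apart in any of the results.

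The arrays carried markers of the labelled tissue. The germ cell genes Ddx4 and Dazl, the Sertoli gene Sox9, the Leydig genes Cyp17a1 and Insl3 and the myoid gene Acta2 were above background on all 6 KO49 and all 6 WT15 arrays. Amh, made by immature Sertoli cells, was above background on 4 of 6 KO49 and 6 of 6 WT15 arrays, and the probe for Sycp3 was above background on 0 arrays of either group. Between 16931 and 19031 probes were above background on a KO49 array and between 18193 and 18598 on a WT15 array. KO49 arrays varied more: the median standard deviation of a probe over 6 arrays was 0.54 on the log2 scale in KO49, 0.24 in WT15 and 0.19 in WT49. On the first principal component of all 24 arrays (83.1% of the variance) KO49 arrays lay between -68.4 and 153.8, WT15 arrays between -123.0 and -96.6 and WT49 arrays between 190.7 and 203.4. KO49 replicate D stood apart at -68.4, nearest to WT15, and had the lowest germ cell levels of its group. WT15 replicate A stood apart in the elongating spermatid list, with a list mean of 0.59 relative to the WT15 mean where the other 5 WT15 arrays lay between -0.25 and 0.08. Where leaving out either array moved a list's count by at least 2 genes and 1.5 times, or turned its median, the value without it is given.

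The targeted gene was lower in KO49. Nsun2 was measured by 1 probe, whose normalized log2 intensity was 5.14, 5.47 and 6.07 on KO49 arrays (lowest, median and highest of 6), against 5.85, 6.63 and 7.26 on WT15 arrays. WT15 replicate D lay below KO49 replicate C, so the groups overlapped. The log2 difference was -1.12 (SE 0.23, limma adjusted p = 0.00259), with the same sign within each of the 4 slides. Slides 1 and 2 held a single array of each of these groups. The probe was above background on 0 of 6 KO49 and 5 of 6 WT15 arrays, so the gene was at least 1.15-fold lower in KO49. The position of the probe against the 2 inserted cassettes was not analysed here, so the probe is a partial check of the labels.

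Across the array, 8724 of 22639 tested probes (38.5%) differed between KO49 and WT15 at a limma adjusted p under 0.05, 3240 higher and 5484 lower in KO49. With each gene read by its brightest tested probe, 2014 of 12166 genes (16.6%) were higher and 2662 (21.9%) lower in KO49. The largest differences were mostly rises: 920 genes were called higher by more than 4-fold and 62 lower by more than 4-fold. Scaling moved the split between higher and lower calls: 37.1% of the calls were higher in KO49 after quantile normalization and 63.8% after cyclic loess, which moved the median difference over all tested probes to 0.08, against -0.21. KO49 lay above WT15 without overlap in 1097 genes (9.02%) and below it in 1353 (11.1%). Medians of gene lists are to be read beside the median over all genes tested, -0.18. Of 13439 probes above background on all 12 arrays, 7254 (54.0%) had a 95% interval of the log2 difference inside -1 to 1. Of the same 13439 probes 4577 (34.1%) were called, and a called probe can have such an interval. Probes that were not above background on every array are outside both counts.

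**Figure D1:**
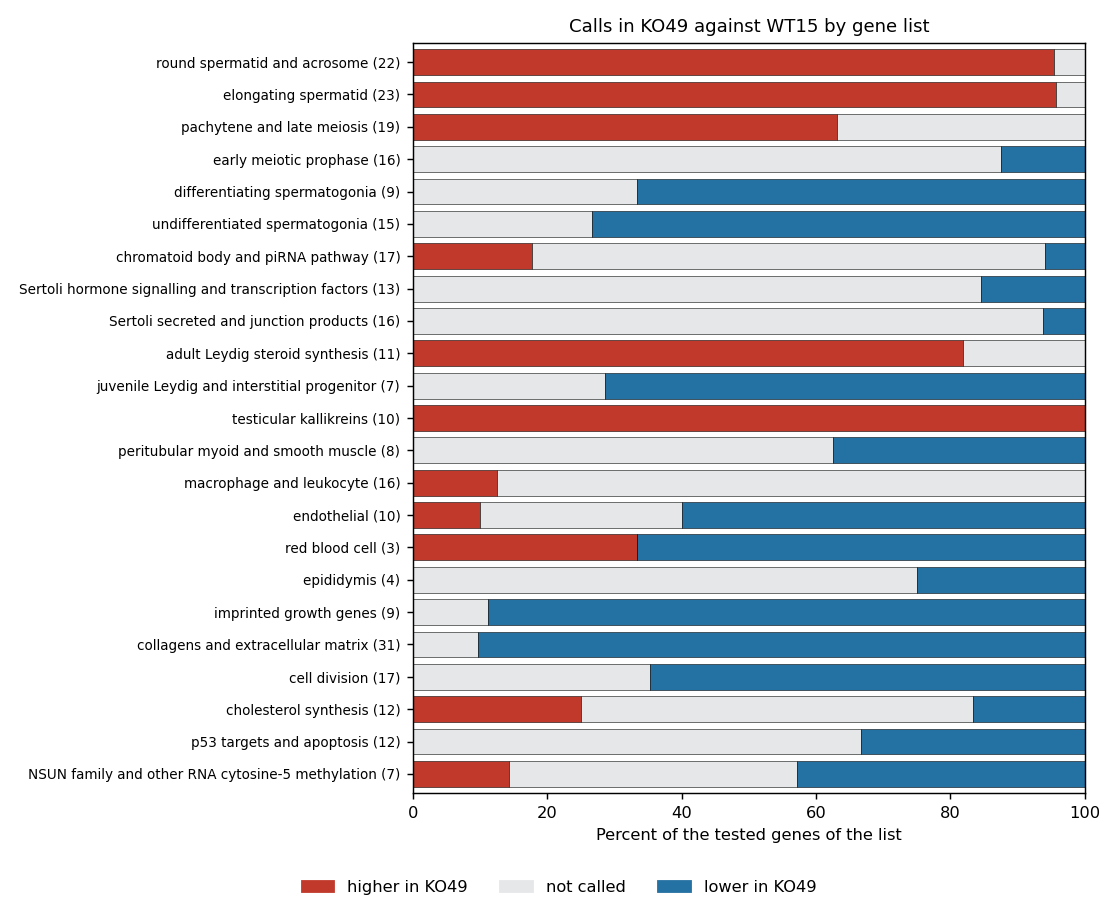
Share of the tested genes of each of 23 gene lists (number tested in brackets) that was higher in KO49 than in WT15, not called, or lower, in percent, at a limma adjusted p under 0.05. The spermatid, adult Leydig and kallikrein lists were mostly higher in KO49, and the matrix, imprinted and spermatogonial lists mostly lower, against 16.6% higher and 21.9% lower over all genes.

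By list mean, genes of spermatids were higher on every KO49 array than on any array of juvenile WT testis, though not every single gene was. Of all genes 16.6% were higher and 21.9% lower. In the elongating spermatid list, 22 of 23 tested genes were higher and 0 lower, with a median log2 difference of 6.10, and in the round spermatid and acrosome list 21 of 22 were higher and 0 lower, with a median of 4.22. KO49 arrays lay above WT15 arrays without overlap in 20 of 23 elongating and 15 of 22 round spermatid genes, against 9.02% of all genes. Of the same genes, 14 of 23 and 11 of 22 were above background on 0 WT15 arrays, and such genes had to differ once they passed the filter on dim probes through the adult arrays. With those genes at their bounds the medians were 5.23 and 3.31, and on the authors' log2 values, without background correction, the medians were 3.79 and 2.46.

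Prm1 encodes protamine 1, which replaces histones in the sperm nucleus. Its level was 14.28, 15.51 and 15.75 on KO49 arrays, against 5.59, 6.43 and 10.21 on WT15 arrays. Every KO49 array lay above every WT15 array, and replicate A alone held the WT15 value above 6.58. The difference was 8.37 (SE 0.63, limma adjusted p = 8e-06), and against WT49 (15.66, 15.71 and 15.76) it was -0.41 (limma adjusted p = 0.14) near the upper end of the scale at 15.90. Tnp1, transition protein 1, which precedes the protamines, stood at 12.34, 14.27 and 15.55 on KO49 arrays and 5.64, 6.43 and 8.69 on WT15 arrays. The groups did not overlap, and the difference was 7.59 (SE 0.57, limma adjusted p = 8e-06). Hils1, a linker histone variant of spermatids, stood at 10.07, 12.57 and 14.94 on KO49 arrays and 4.73, 4.84 and 6.11 on WT15 arrays, where it was above background on 0 of 6. It was at least 81.3-fold higher in KO49.

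Other genes were among the 10 largest rises, and the stage they belong to was not tested. They were Gsg1 (8.10), Gtsf1l (7.91), the histone gene H2al1e (7.84), Cabs1, a calcium-binding protein of spermatids (at least 74.5-fold), Tmem247 (at least 72.3-fold), Oaz3, the testis antizyme (7.22), and Smcp, a protein of the sperm mitochondrial capsule (at least 73.8-fold). Their limma adjusted p-values lay between 8.18e-06 and 1.58e-05, and the groups did not overlap in any of these 7 genes. Cabs1, Tmem247 and Smcp were not above background on any WT15 array. These genes had to differ once they passed the filter on dim probes, so their p-values and lack of overlap add nothing. For genes with only part of their WT15 arrays above background, the fitted value is printed, and the offset sets part of its size. Replicate A held the highest WT15 value of Gsg1 (7.06, the other 5 arrays between 4.94 and 5.35), Cabs1 (5.99, the others 4.66 to 5.01) and Smcp (6.29, the others 5.24 to 5.46). Leaving that array out gave a median of 6.14 for the elongating spermatid list and kept the count of 22.

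In the round spermatid list the largest rises were in Acrv1, an acrosomal protein (11.72 at the median of KO49 arrays, 4.69 at that of WT15 arrays, at least 38.9-fold), Spaca3, a lysozyme-like protein of the acrosome (11.14 and 4.79, at least 26.5-fold), and Lyzl1 (11.28 and 5.31, at least 30.8-fold). Their KO49 arrays began at 9.07, 8.80 and 8.95. None of these genes was above background on any WT15 array, so they had to differ once they passed the filter on dim probes. Tex101, a surface protein of germ cells, was the list member that was not called (-1.26, limma adjusted p = 0.0612), and in the elongating list it was Fscn3 (1.41, limma adjusted p = 0.105). Without KO49 replicate D 1 round spermatid gene was lower and 21 higher. Crem, a transcription factor of post-meiotic genes, was higher by 2.19 on its brightest probe (limma adjusted p = 0.0108), a call given by 1 of its 5 tested probes.

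CREM binds the cyclic AMP response element, so the palindrome TGACGTCA was looked up on both strands in RefSeq promoters of the GRCm38.p6 assembly, 250 bases before to 50 after each start. It was in a promoter of 1 of 18 round spermatid genes with an entry, of 0 of 20 elongating spermatid genes, and of 338 of 9861 tested genes (3.43%). The 1 gene was Izumo1, the sperm protein that binds the egg, which was higher in KO49 by 3.55. Its stretch is shown because it places the element close before the start, with the motif in capitals and the gene's strand (+) read 5′ to 3′ at chr7:45621679-45621758.
Izumo1: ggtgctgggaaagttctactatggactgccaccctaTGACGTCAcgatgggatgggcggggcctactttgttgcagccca
The first base of the element lies 96 bases before the start. A match is a description of the letters, and binding was not measured.

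**Figure D2:**
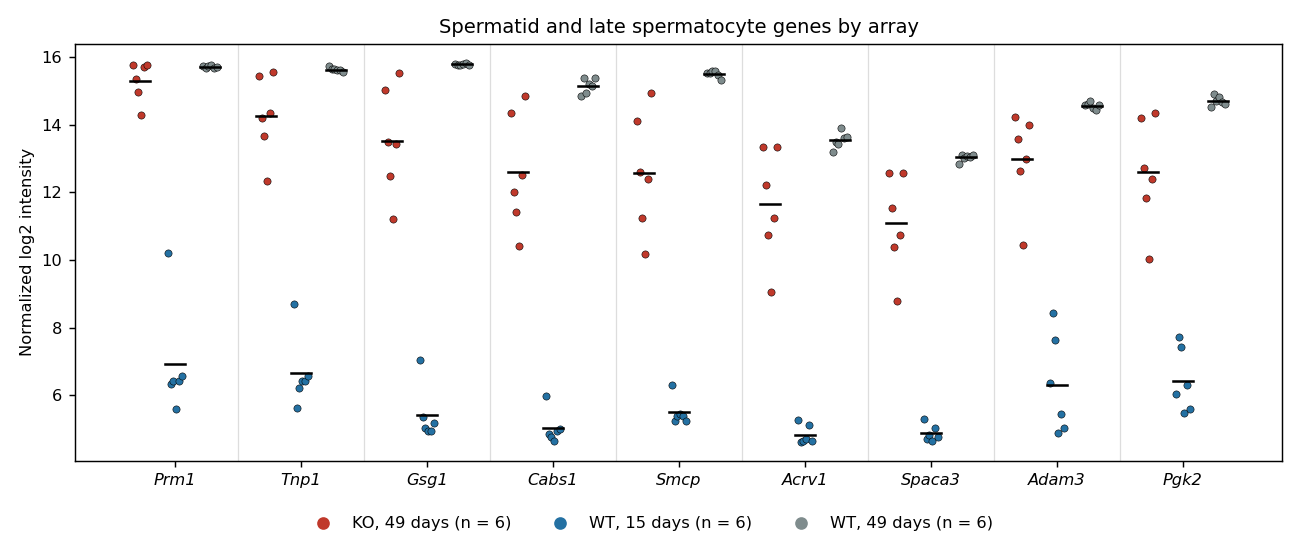
Normalized log2 intensity of 9 spermatid and late spermatocyte genes on each array, with KO49, WT15 and WT49 from left to right for each gene (6 arrays each, bars are means). KO49 arrays lie above WT15 arrays in every gene shown and spread over a wider range than WT49 arrays, as in Gsg1 (11.21 to 15.52 in KO49, 15.75 to 15.82 in WT49). Cabs1, Smcp, Acrv1 and Spaca3 were not above background on any WT15 array and had to differ once they passed the filter on dim probes.

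The spermatid level of KO49 lay between juvenile and adult WT and differed among the KO49 arrays. As the mean over the list relative to the WT15 mean, the elongating spermatid list stood at 5.70 ± 1.503 in KO49 (SD, n = 6), with WT15 arrays between -0.25 and 0.59 and WT49 at 8.04 ± 0.06 (SD, n = 6). By array it was 7.12 (A), 5.52 (B), 4.82 (C), 3.59 (D), 5.44 (E) and 7.69 (F). All 6 KO49 arrays were therefore above all WT15 arrays and below all WT49 arrays. The round spermatid list stood at 3.93 ± 1.44 in KO49 and 5.84 ± 0.06 in WT49, and ran from 1.62 (D) to 5.46 (F) among KO49 arrays. Against WT49, 22 of 23 elongating and 20 of 22 round spermatid genes were called lower in KO49, where 2869 of 12166 genes (23.6%) were lower and 5110 (42%) higher. That comparison shares the KO49 arrays. Within the 4 slides KO49 minus WT15 was 5.45, 4.23, 6.68 and 5.58 for the elongating and 4.01, 3.17, 4.44 and 3.75 for the round spermatid list. The values of slides 1 and 2 each set a single KO49 array against a single WT15 array, on slide 2 WT15 replicate A.

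**Figure D3:**
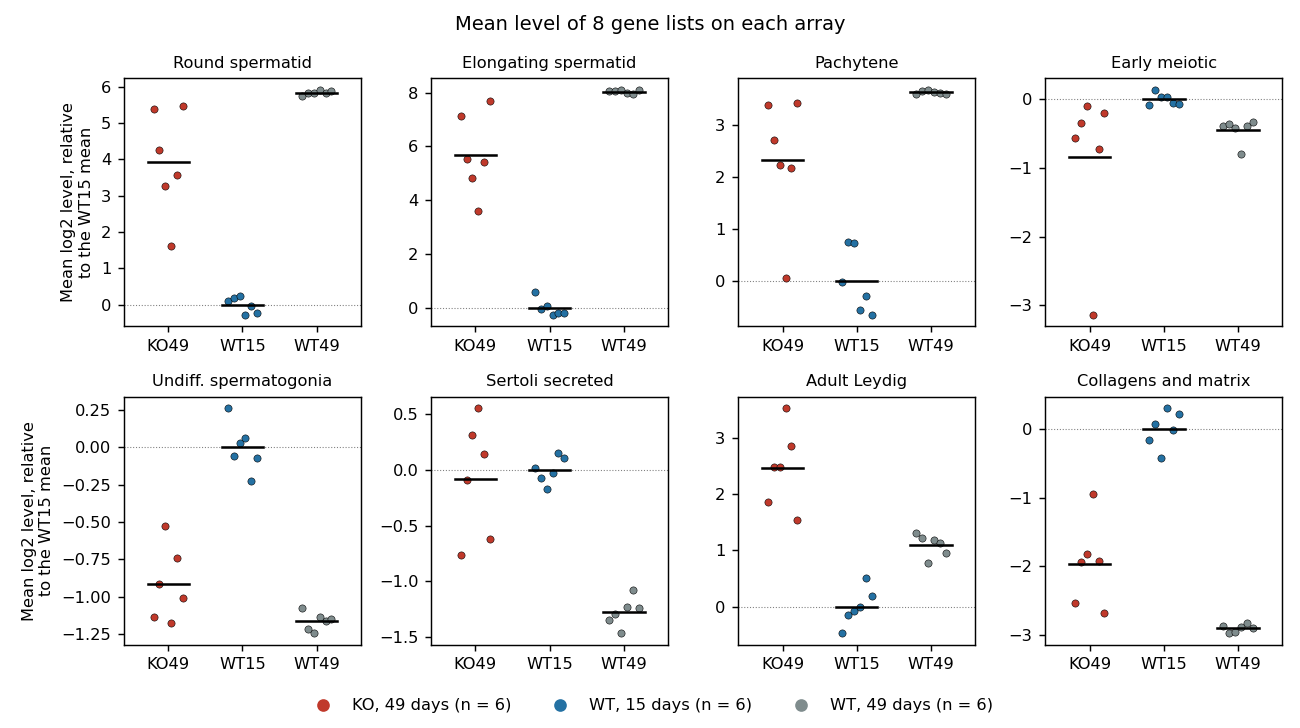
Mean normalized log2 level of 8 gene lists on each array, relative to the mean of WT15, with KO49, WT15 and WT49 from left to right (6 arrays each, bars are means). The spermatid lists of KO49 lie between WT15 and WT49, the adult Leydig list of KO49 lies above WT49 on every array, and replicate D sits lowest in the early meiotic list at -3.14.

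Late meiotic genes were higher in KO49, with less distance from WT15. In the pachytene and late meiosis list 12 of 19 tested genes were higher and 0 lower (median 1.82). Of all genes 16.6% were higher and 21.9% lower. Without KO49 replicate D 17 were higher, without WT15 replicate A 9, and with the slide as a fixed block 10. Adam3, a sperm surface protein first made in spermatocytes, stood at 10.44, 13.27 and 14.24 on KO49 arrays and 4.88, 5.92 and 8.43 on WT15 arrays. The groups did not overlap (difference 6.68, SE 0.72, limma adjusted p = 4.29e-05). Pgk2, the germ cell form of a glycolytic enzyme, was higher by 6.16 (SE 0.67, limma adjusted p = 4.39e-05) and Spink2, a protease inhibitor of sperm, by 4.80 (SE 0.71, limma adjusted p = 3.24e-04). Both were without overlap too. Ldhc, the testis form of lactate dehydrogenase, was already at 11.76, 12.69 and 14.36 on WT15 arrays and at 13.30, 15.59 and 15.87 on KO49 arrays, a difference of 2.28 with overlap. The 7 genes not called included Hspa2, the heat shock protein of spermatocytes (0.64, 95% interval -0.18 to 1.46). Replicate D was the low array, with a list mean of 0.07 where the other 5 KO49 arrays lay between 2.18 and 3.43.

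In the early meiotic prophase list 0 of 16 tested genes were higher and 2 lower, where 16.6% and 21.9% of all genes were. The median of the list was -0.78. For 15 of the 16 the 95% interval reached beyond -1 or 1, so a small difference is not shown either. The array that decided this median was replicate D, at -3.14 on the list mean where the other KO49 arrays lay between -0.72 and -0.10. Without it the median was -0.31, with 1 gene higher and 4 lower, beside a median over all genes of -0.25. Stra8, needed to enter meiosis, stood at 4.92, 6.15 and 7.74 on KO49 arrays and 7.57, 8.16 and 8.96 on WT15 arrays, with a small overlap (-1.77, SE 0.44, limma adjusted p = 0.00717). Mei1, which acts in making meiotic breaks, stood at 5.98, 7.43 and 8.50 on KO49 arrays and 8.63, 8.90 and 9.17 on WT15 arrays, without overlap (-1.44, SE 0.36, limma adjusted p = 0.0071). The synaptonemal complex gene Sycp1 was at -0.77 (95% interval -1.93 to 0.39) and the meiotic cohesin gene Rec8 at 0.36 (-0.16 to 0.88), and neither was called.

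The chromatoid body is a granule of germ cells rich in piRNA pathway proteins, and most genes of that list were not called in either direction. Of 17 tested genes 3 were higher and 1 lower, where 16.6% and 21.9% of all genes were, with a median of -0.13. Tdrd6, a Tudor-domain protein of the chromatoid body, stood at 10.52, 13.19 and 14.18 on KO49 arrays and 7.38, 8.39 and 10.58 on WT15 arrays, and only replicate D reached into the WT15 range (4.25, SE 0.67, limma adjusted p = 4.67e-04). Gtsf1, a partner of PIWI proteins, was higher by 1.59 (SE 0.52, limma adjusted p = 0.0283) and Tdrd7 by 0.83 (SE 0.29, limma adjusted p = 0.0362), both with overlap. Neither was called with the slide as a fixed block (limma adjusted p = 0.0613 and 0.0588), and Tdrd7 lost its call under 14 of 26 other settings. Piwil4, the PIWI protein of early germ cells, was lower (-1.35, SE 0.17, limma adjusted p = 1.31e-04), at 5.84, 5.97 and 6.49 on KO49 arrays and 6.90, 7.45 and 7.70 on WT15 arrays. The median turned to 0.32 without KO49 replicate D, with 6 genes higher and 3 lower, and to 0.14 after cyclic loess.

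Genes of spermatogonia, the cells that precede meiosis, were mostly lower in KO49, beside 21.9% of all genes lower and 16.6% higher. In the undifferentiated list 11 of 15 tested genes were lower and 0 higher (median -1.15), and in the differentiating list 6 of 9 were lower and 0 higher (median -0.97). Of these genes, 4 of 15 and 1 of 9 were above background on 0 KO49 arrays, as were 485 of all 12166 genes. Such genes had little room to lie higher in KO49 once they passed the filter. With 2 and 1 genes at their bounds the medians were -1.15 and -0.89. The undifferentiated median ranged from -1.43 to -0.40 over the other settings, the smallest on the authors' log2 values. Ret, the receptor subunit through which the stem cell factor GDNF acts, stood at 6.58, 7.36 and 8.41 on KO49 arrays and 8.87, 9.15 and 9.80 on WT15 arrays, without overlap (-1.75, SE 0.29, limma adjusted p = 7.4e-04). Upp1 was lower too (-1.86, SE 0.28, limma adjusted p = 3.91e-04), as was the translational regulator gene Nanos3 (-1.73, SE 0.23, limma adjusted p = 1.66e-04). In the differentiating list Sohlh1, a transcription factor of spermatogonia, stood at 8.75, 10.53 and 11.39 on KO49 arrays and 11.96, 12.24 and 12.88 on WT15 arrays (-1.92, SE 0.38, limma adjusted p = 0.00202). Rhox13 (-1.64, limma adjusted p = 0.0157) and the cyclin gene Ccnd2 (-1.49, limma adjusted p = 1.55e-04) lay lower without overlap, and the Rhox13 call was lost after cyclic loess. The list members Id4 (0.53, 95% interval -0.03 to 1.10), Etv5 (0.31, -0.24 to 0.85) and Kit (0.22, -0.41 to 0.85), a growth factor receptor of differentiating spermatogonia, were not called. WT49 arrays were also low: the list means relative to WT15 were -0.92 in KO49 and -1.16 in WT49 for the undifferentiated list, and -1.09 in KO49 and -1.92 in WT49 for the differentiating list.

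Cell division genes followed the same direction. Of 17 tested genes 11 were lower and 0 higher (median -1.02), where 21.9% and 16.6% of all genes were. After cyclic loess 7 list genes were lower, and without KO49 replicate D 2 were higher and 13 lower. The replication licensing gene Mcm3 stood at 6.98, 8.14 and 9.06 on KO49 arrays and 9.69, 10.17 and 10.38 on WT15 arrays, without overlap (-2.04, SE 0.28, limma adjusted p = 1.89e-04). Tyms, which makes thymidylate for DNA synthesis, differed by -1.82 and the licensing gene Mcm5 by -1.68. The list mean was -2.30 on replicate D and between -0.81 and -0.55 on the other KO49 arrays. WT49 stood at -0.99 ± 0.09 (SD, n = 6) on this list, beside -0.95 ± 0.67 in KO49.

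Few Sertoli cell genes were called between KO49 and WT15, and most were higher in KO49 than in WT49. Against WT15, 16.6% of all genes were higher and 21.9% lower. Of 13 tested genes of hormone signalling and transcription factors 0 were higher and 2 lower than in WT15 (median -0.36), and of 16 secreted and junction products 0 were higher and 1 lower (median -0.03). In the secreted list 11 of 16 genes (68.8%) had an interval inside -1 to 1, against 47.3% of all genes tested, and in the other list 2 of 13 (15.4%). Against WT49, 13 of 13 and 14 of 16 of these genes were called higher in KO49, where 42% of all genes were. Naming members beyond the called ones was done after their values were seen. Sox9, the factor that directs Sertoli cell fate, stood at 11.70, 13.09 and 13.83 on KO49 arrays, 13.10, 13.18 and 13.33 on WT15 arrays and 10.82, 11.15 and 11.35 on WT49 arrays. KO49 arrays thus spread to both sides of the WT15 range (-0.36, 95% interval -1.04 to 0.32). Cldn11, a tight junction protein of the blood-testis barrier, was at -0.06 (-0.57 to 0.45), the gap junction gene Gja1 at 0.06 (-0.64 to 0.75), the transferrin gene Trf at 0.21 (-0.39 to 0.80) and the follicle-stimulating hormone receptor gene Fshr at -0.27 (-1.14 to 0.60).

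The 3 Sertoli genes that were called all lay lower in KO49, though some Sertoli genes were called higher under other settings. Amh, the hormone of immature Sertoli cells, stood at 5.17, 6.61 and 8.67 on KO49 arrays and 7.48, 8.47 and 9.05 on WT15 arrays, and was above background on 0 of 6 WT49 arrays. The groups overlapped, and the difference was -1.79 (SE 0.51, limma adjusted p = 0.0148). Inhba, a subunit of activin, was at -1.68 (SE 0.36, limma adjusted p = 0.00305) and above background on 1 of 6 KO49 arrays, replicate D, at 7.90. Shbg, an androgen-binding globulin, stood at 9.73, 10.42 and 12.30 on KO49 arrays and 11.86, 12.39 and 12.74 on WT15 arrays (-1.77, SE 0.37, limma adjusted p = 0.00253). By array the hormone and transcription factor list ran from -1.53 (F) and -1.49 (A) to 0.87 (D) in KO49. These 3 arrays were also the extremes of the spermatid lists, in the opposite order. Without replicate D 5 genes of this list were lower (median -0.62), and with array weights its median was 0.01. Array weights gave 2 higher and 4 lower in this list, and 5 higher and 2 lower in the secreted list. Cyclic loess gave 1 higher and 2 lower in this list, and 2 higher and 1 lower in the secreted list. The secreted list had a median of 0.18 with array weights and 0.11 after cyclic loess. With the slide as a fixed block 0 genes were higher in either list.

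Leydig cell genes of the adult type were higher in KO49 than in WT15, and most were higher than in WT49 too. Against WT15, 16.6% of all genes were higher and 21.9% lower. Of 11 tested genes 9 were higher and 0 lower (median 3.12), and 7 lay above both WT ages, where 151 of 12166 genes (1.24%) did. Hsd17b3, which makes testosterone from androstenedione, stood at 9.71, 10.35 and 11.98 on KO49 arrays, 6.67, 6.74 and 6.94 on WT15 arrays and 7.16, 8.23 and 8.68 on WT49 arrays. No KO49 array overlapped either WT age, and the difference was 3.85 from WT15 (SE 0.31, limma adjusted p = 8.18e-06) and 2.52 from WT49 (limma adjusted p = 5.19e-04). Cyp17a1, the enzyme before it in the pathway, stood at 14.69, 15.70 and 15.86 on KO49 arrays, 11.28, 12.30 and 13.23 on WT15 arrays and 13.61, 13.86 and 14.37 on WT49 arrays. Its difference from WT15 was 3.23 (limma adjusted p = 4.29e-05). Cyp11a1, which cleaves the cholesterol side chain, was higher by 3.20 than WT15 and 1.43 than WT49, a call against WT15 that 1 of its 2 tested probes gave. Star, which carries cholesterol into mitochondria, was above background on 5 of 6 KO49 and 0 of 6 WT15 arrays and was at least 2.74-fold higher.

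The other members above both ages were the carboxylesterase gene Ces1d (4.82 from WT15, 1.76 from WT49), the epoxide hydrolase gene Ephx1 (3.12 and 1.74) and the adhesion molecule gene Vcam1 (1.06 and 2.33). Ptgds, a prostaglandin synthase, and Insl3, the peptide hormone of Leydig cells, were higher than in WT15 but not called against WT49. Ptgds stood at 11.13, 11.73 and 12.92 on KO49 arrays and 6.20, 6.73 and 8.33 on WT15 arrays (5.01, SE 0.38, limma adjusted p = 8e-06), and Insl3 differed by 1.47 (limma adjusted p = 1.04e-04). Scarb1 (-0.32) and Hsd11b1 (-0.86) were not called. The list mean relative to WT15 was 2.46 ± 0.71 in KO49 and 1.10 ± 0.19 in WT49 (SD, n = 6 each), highest on replicate D (3.52) and lowest on F (1.54). Within the slides it was 2.56, 2.96, 2.01 and 2.59, and without replicate D 6 genes lay above both ages. The NR5A1 site TCAAGGTCA, bound by a factor of steroid-making cells, was in a promoter of 0 of the 6 list genes with an entry and of 37 of 9861 tested genes (0.375%), which says only that these letters are not in those windows.

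Genes of interstitial progenitors and juvenile Leydig cells went the other way. Of 7 tested genes 5 were lower and 0 higher (median -0.99), where 21.9% and 16.6% of all genes were. After cyclic loess 3 list genes were lower. The matrix protein gene Thbs2 stood at 5.06, 5.47 and 6.93 on KO49 arrays and 7.97, 8.39 and 9.31 on WT15 arrays, without overlap (-2.85, SE 0.32, limma adjusted p = 5.81e-05). The progenitor transcription factor genes Tcf21 (-1.80, limma adjusted p = 0.00104) and Nr2f2 (-1.13, limma adjusted p = 0.0153) were lower with overlap. Hsd17b1 was at 0.01 (95% interval -0.83 to 0.84). All 7 genes were higher in KO49 than in WT49, where 42% of all genes were, and the list mean relative to WT15 was -1.16 in KO49 and -2.55 in WT49.

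Testicular kallikreins are serine proteases of Leydig cells whose genes lie in a cluster of near-identical copies, so a probe may read more than its own gene and single members are uncertain. All 10 tested members were higher in KO49 (median 5.25), as were 16.6% of all genes. They lay above WT15 without overlap, as did 9.02% of all genes, and 5 lay above both WT ages, as did 1.24%. Of the 10, 5 were above background on 0 WT15 arrays and had to differ once they passed the filter. With these at their bounds the median was 4.25, and on the authors' log2 values it was 2.99. Klk1b22, ranked highest above both ages by the smaller of its 2 differences, stood at 8.76, 9.72 and 10.79 on KO49 arrays, 4.94, 5.21 and 6.97 on WT15 arrays and 5.66, 7.18 and 8.26 on WT49 arrays (4.25 from WT15, SE 0.43, limma adjusted p = 2.65e-05). Klk1b21 stood at 12.89, 14.65 and 14.99 on KO49 arrays and 7.59, 8.40 and 9.26 on WT15 arrays, and Klk1b27 at 12.26, 14.15 and 14.57 on KO49 arrays and 6.02, 7.60 and 8.13 on WT15 arrays. KO49 overlapped neither WT age in Klk1b21, while the 2 lowest KO49 arrays of Klk1b27 (12.26 each) were level with the highest WT49 array. Klk1b24 (5.41 from WT15, 1.99 from WT49) and Klk1b1 (at least 6.06-fold above WT15) were the other 2 of the 5, and Klk1b26 differed by 5.80 from WT15 (SE 0.41, limma adjusted p = 5.76e-06) and by 0.60 from WT49 (limma adjusted p = 0.119). Against WT49, 5 of the 10 were called higher and 3 lower, near the shares of all genes (42% and 23.6%). The lower ones were Klk1b8 (-2.79), Klk1b9 (-2.82) and Klk1b5 (-0.84).

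**Figure D4:**
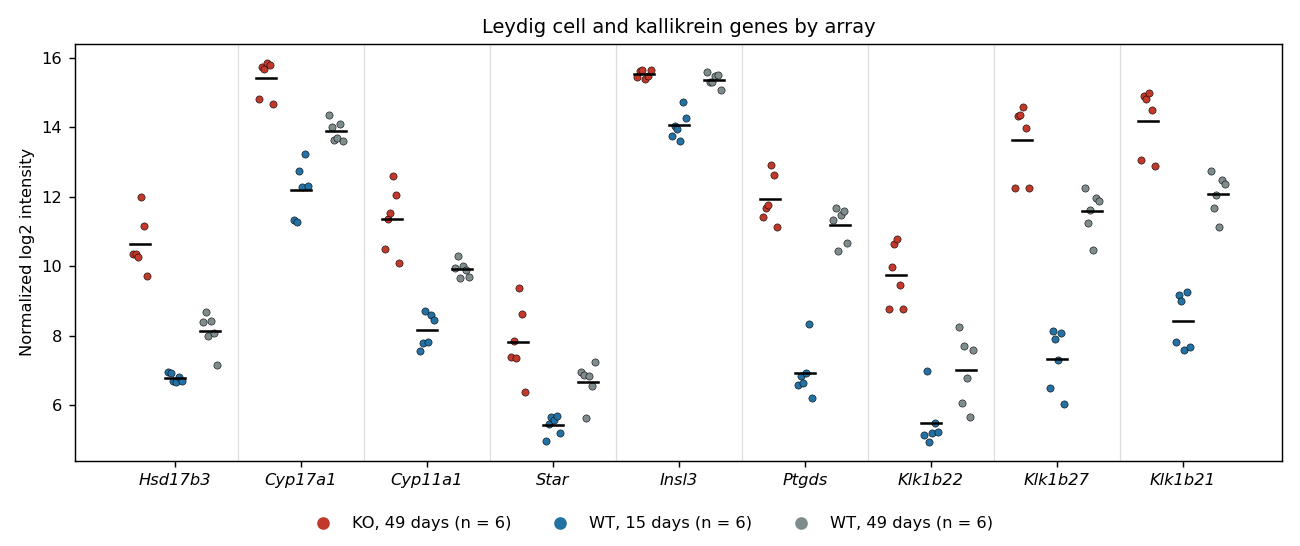
Normalized log2 intensity of 6 Leydig cell and 3 kallikrein genes on each array, with KO49, WT15 and WT49 from left to right for each gene (6 arrays each, bars are means). Hsd17b3 lies above both WT ages on every KO49 array (9.71 to 11.98 in KO49, 6.67 to 6.94 in WT15, 7.16 to 8.68 in WT49), while Insl3 overlaps WT49.

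Most genes of the collagen and matrix list, the longest of the 23 lists, were lower in KO49. Of 31 tested genes 28 were lower and 0 higher (median -1.91), where 21.9% and 16.6% of all genes were. Of the 31, 17 lay below WT15 without overlap, as did 11.1% of all genes. Eln, elastin, stood at 6.66, 7.39 and 8.90 on KO49 arrays and 11.02, 11.34 and 11.46 on WT15 arrays. It was the largest fall of any named gene (-3.86, SE 0.31, limma adjusted p = 8.34e-06). Col1a1, a chain of type I collagen, stood at 7.41, 8.80 and 10.62 on KO49 arrays and 11.72, 12.44 and 12.92 on WT15 arrays (-3.72, SE 0.45, limma adjusted p = 8.37e-05). Mfap4, a microfibril protein, differed by -3.29 (SE 0.36, limma adjusted p = 4.53e-05) and Col3a1, of type III collagen, by -3.10 (SE 0.52, limma adjusted p = 6.77e-04). Mfap4 had no overlap and Col3a1 did. Sparc (-0.50), Dcn (-0.54) and Nid1 (-0.79) were the 3 genes not called, and all 31 were lower without KO49 replicate D.

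Against WT49, 20 of the 31 matrix genes were higher in KO49 and 3 lower, where 42% and 23.6% of all genes were. On the authors' log2 values the list's median difference from WT15 was -1.21. The 3 that lay below both WT ages, where 116 of 12166 genes (0.953%) did, were Lum, Col14a1 and Col5a1. Lum, a small proteoglycan, stood at 5.16, 5.90 and 7.51 on KO49 arrays, 7.20, 8.82 and 9.52 on WT15 arrays and 7.22, 7.42 and 7.67 on WT49 arrays. Replicate D alone among KO49 arrays reached into the range of either WT age, and the difference was -2.41 from WT15 (limma adjusted p = 0.00174) and -1.38 from WT49 (limma adjusted p = 0.00293). Col14a1 was above background on 0 of 6 KO49 arrays and at least 2.65-fold lower than in WT15, a call that 1 of its 2 tested probes gave. As a whole the list stood at -1.97 ± 0.62 in KO49 and -2.90 ± 0.06 in WT49 (SD, n = 6 each), relative to WT15, and ran from -2.68 (F) to -0.95 (D) in KO49. Within the slides it was -1.505, -1.65, -2.33 and -2.003.

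Imprinted growth genes, which promote or restrain growth before and shortly after birth, were lower in 8 of 9 tested cases and higher in 0 (median -1.14). Of all genes 21.9% were lower and 16.6% higher. Dlk1, a growth regulator of immature cells, stood at 8.53, 9.67 and 11.001 on KO49 arrays and 12.87, 13.51 and 14.14 on WT15 arrays, without overlap (-3.81, SE 0.41, limma adjusted p = 4.36e-05). Mest differed by -1.86 (SE 0.25, limma adjusted p = 1.81e-04), and Igf2, the fetal growth factor, by -1.28 (SE 0.33, limma adjusted p = 0.00932). All but Peg10 (0.15) were called. Igf2 remained high, at 10.77, 11.95 and 13.13 on KO49 arrays, 12.76, 13.15 and 13.66 on WT15 arrays and 9.85, 10.04 and 10.37 on WT49 arrays.

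**Figure D5:**
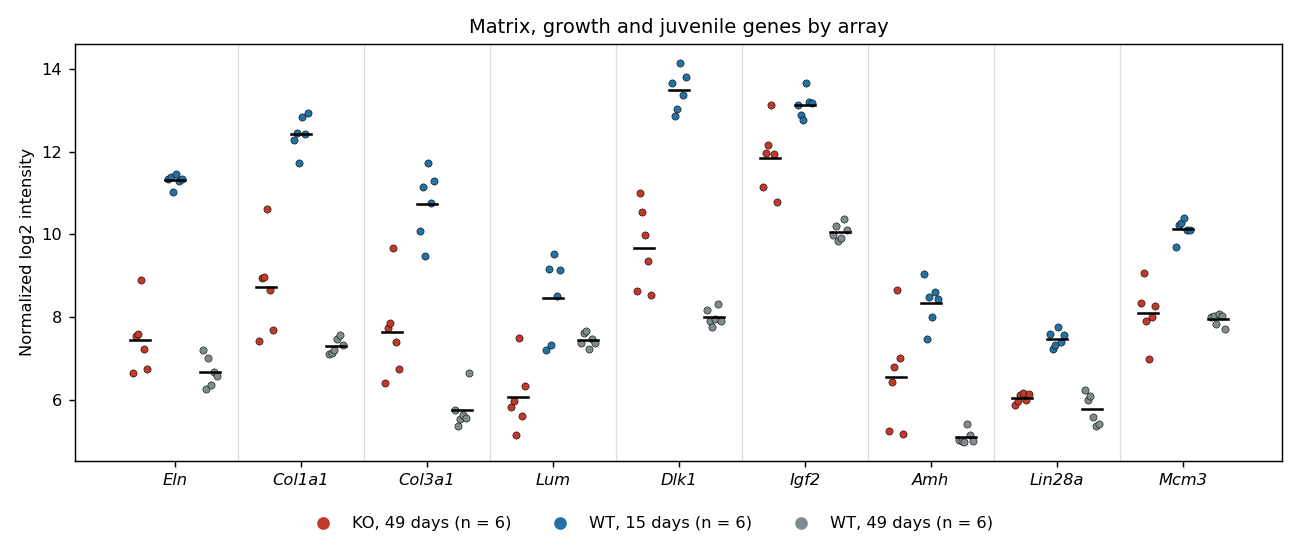
Normalized log2 intensity of 9 genes high in juvenile testis, of matrix, growth, Sertoli cell, spermatogonial and DNA replication function, on each array, with KO49, WT15 and WT49 from left to right for each gene (6 arrays each, bars are means). Eln, Col1a1, Dlk1, Lin28a and Mcm3 show no overlap between KO49 and WT15, and Lum lies at 5.16 to 7.51 in KO49, 7.20 to 9.52 in WT15 and 7.22 to 7.67 in WT49.

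Among the 10 largest falls outside these lists were Bcan, a brain-type proteoglycan, Mapk13, a stress-activated kinase, and Thbd, the thrombin receptor of vessel walls. Bcan stood at 4.82, 4.93 and 5.29 on KO49 arrays, none above background, and 7.81, 8.597 and 9.22 on WT15 arrays, at least 4.48-fold lower. Mapk13 stood at 5.34, 6.07 and 7.60 on KO49 arrays and 8.82, 9.50 and 10.02 on WT15 arrays (-3.29, SE 0.34, limma adjusted p = 3.24e-05). Thbd stood at 6.07, 7.19 and 7.90 on KO49 arrays and 9.80, 10.40 and 10.56 on WT15 arrays (-3.08, SE 0.29, limma adjusted p = 1.64e-05). None of the 3 overlapped, but Bcan had little room to lie higher in KO49 once it passed the filter, so its lack of overlap adds nothing. Thumpd1, an RNA-binding protein, differed by -3.20 (SE 1.12, limma adjusted p = 0.0377), spread from 4.78 to 11.34 on KO49 arrays against 10.38 to 11.71 on WT15 arrays, and lost its call under 13 of 26 other settings.

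Genes of other cells of the interstitium and vessels showed smaller differences. Of all genes 21.9% were lower and 16.6% higher in KO49. In the peritubular myoid list 3 of 8 tested genes were lower and 0 higher (median -0.60, or -0.43 with 1 gene at its bound), and 6 were lower without KO49 replicate D. The smooth muscle myosin gene Myh11 stood at 9.14, 10.08 and 11.004 on KO49 arrays and 11.14, 11.40 and 11.56 on WT15 arrays (-1.36, SE 0.26, limma adjusted p = 0.00171), and the actin gene Acta2 differed by -0.75, a call lost with the slide as a fixed block (limma adjusted p = 0.0713) and under 10 of 26 other settings in all. Tagln, not above background on KO49 arrays, was at least 1.01-fold lower. In the endothelial list 6 of 10 were lower and 1 higher (median -0.87), with 3 lower after cyclic loess, 8 without KO49 replicate D and 4 without WT15 replicate A. Egfl7 (-1.51, limma adjusted p = 6.66e-04), the adhesion molecule gene Pecam1 (-1.38, limma adjusted p = 5.72e-04) and Eng (-1.31, limma adjusted p = 0.00589) led the falls. Vwf, the clotting factor carrier of endothelium, was higher by 0.72 (limma adjusted p = 0.0414), in 3 of 4 slides. That call was lost with the slide as a fixed block (limma adjusted p = 0.0841) and under 10 of 26 other settings in all.

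The macrophage and leukocyte list showed 2 of 16 tested genes higher and 0 lower (median 0.15), where 16.6% and 21.9% of all genes were. They were Aif1 and Fcer1g. Aif1 stood at 9.90, 10.53 and 12.62 on KO49 arrays, 6.84, 7.72 and 7.89 on WT15 arrays and 13.13, 13.23 and 13.36 on WT49 arrays. Its KO49 level was thus between the WT ages, while 13 of the 16 list genes were higher in KO49 than in WT49, where 42% of all genes were. Fcer1g, a signalling chain of Fc receptors, stood at 9.90, 10.09 and 12.19 on KO49 arrays and 5.13, 5.36 and 11.17 on WT15 arrays, where replicates B and E (9.85 and 11.17) lay apart from the other 4 (5.13 to 5.55). The complement genes C1qa (-0.16), C1qb (-0.19) and C1qc (-0.10) were not called. The list median turned to -0.16 without KO49 replicate D, on which the list mean was 1.83 where the other KO49 arrays lay between -0.22 and 0.66.

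Markers of blood moved with the groups. The globin genes Hbb-bt (-2.91, limma adjusted p = 2.51e-05) and Hba-a1 (-2.74, limma adjusted p = 4.13e-05) were lower in KO49 without overlap. Alas2, the haem synthesis enzyme of red blood cells, was higher, at 8.92, 9.72 and 10.31 on KO49 arrays and 6.66, 7.73 and 8.56 on WT15 arrays (1.93, SE 0.34, limma adjusted p = 9.76e-04). WT49 arrays had Alas2 at 9.45, 9.71 and 10.13. The list mean ran from -1.64 to -0.42 on KO49 arrays, -0.64 to 0.43 on WT15 arrays and -2.30 to -1.32 on WT49 arrays, and the part of blood in the other results was not tested.

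Markers of epididymis, the duct next to the testis, were at hand on some arrays. Of 4 tested genes 1 was lower (Cst11, -1.002, limma adjusted p = 0.00116) and 0 higher (median -0.56, or -0.097 with 1 gene at its bound). Of all genes 21.9% were lower and 16.6% higher, so 1 of 4 lower is near the share of all genes. The list mean ran from -0.88 to -0.38 on KO49 arrays and from -1.33 to 2.28 on WT15 arrays, with WT15 replicates D (2.28) and B (1.28) on top. Defb2 was above background on 0 of 6 KO49 arrays and on 2 of 6 WT15 arrays, replicates D (10.41) and B (8.87). Its part in the results was not tested.

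Outside the Leydig and kallikrein lists, the genes most above both WT ages included Serpina3n, a protease inhibitor, Nmu, the neuropeptide neuromedin U, Glb1l2, Slc45a3 and Klhl14. Glb1l2 stood at 9.12, 10.20 and 11.58 on KO49 arrays, 7.43, 8.08 and 8.88 on WT15 arrays and 7.87, 8.14 and 8.37 on WT49 arrays. Nmu stood at 6.85, 8.06 and 8.93 on KO49 arrays and was above background on 0 of 12 WT arrays, at least 2.89-fold above WT15. Slc45a3 differed by 1.97 from WT15 (limma adjusted p = 4.26e-04) and 1.96 from WT49. KO49 overlapped WT15 in none of these 3 genes, but Nmu had to differ once it passed the filter on dim probes. Serpina3n, with overlap, differed by 2.34 from WT15 (limma adjusted p = 0.0032) and 2.13 from WT49, and Klhl14 was at least 2.03-fold above WT15 on 4 of 6 KO49 arrays above background.

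Below both WT ages the leading gene was Fastkd3, a mitochondrial RNA-binding protein. It stood at 5.61, 6.12 and 6.57 on KO49 arrays, 9.10, 9.36 and 9.57 on WT15 arrays and 7.90, 8.67 and 8.76 on WT49 arrays. The KO49 arrays lay together and far below both WT ages (-3.26 from WT15, SE 0.17, limma adjusted p = 7.6e-07). Fastkd3 lies 6 protein-coding genes from Nsun2 on chromosome 13, and Zfp367 (-2.15 from WT15, limma adjusted p = 4.66e-05, a call of 1 of its 3 tested probes) lies 67 genes away. Of the 116 genes below both ages 11 (9.48%) lie on that chromosome, as do 410 of all 12166 tested genes (3.38%), and the part of the chromosome was not tested. Tead2, a transcription factor of the Hippo pathway, stood at 7.51, 8.08 and 8.65 on KO49 arrays and 9.39, 9.60 and 10.03 on WT15 arrays (-1.57, SE 0.21, limma adjusted p = 1.84e-04), without overlap. Eef2, the translation elongation factor (-1.53, limma adjusted p = 0.0145), Eif4b, an initiation factor (-1.49, limma adjusted p = 0.0307, 1 of 2 probes), and Srp54a, of the signal recognition particle (-1.75, limma adjusted p = 0.0334), were further ones, all with overlap. The kinase gene Prkcz (-1.31), the cyclin gene Ccni (-1.25), Nsun2 itself (-1.12) and, from the undifferentiated spermatogonia list, Pou5f1 were also below both. Eef2, Eif4b, Srp54a, Prkcz and Ccni lost the call against WT15 after cyclic loess. Counts of genes above and below both ages depended on the fit: array weights gave 919 and 665, and a fixed slide block gave 101 and 74.

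In cholesterol synthesis 3 of 12 tested genes were higher and 2 lower (median 0.09), near the shares of all genes (16.6% and 21.9%). Without WT15 replicate A 3 were higher and 0 lower, and without KO49 replicate D the median was -0.12. The higher ones were the enzyme genes Sc5d (1.396, limma adjusted p = 0.015), Cyp51 (0.91, limma adjusted p = 0.0242) and Sqle (0.54, limma adjusted p = 0.0187), and the lower ones the regulator gene Srebf2 (-0.83) and Mvd (-0.80), of which neither was called after cyclic loess. In the list of p53 targets and apoptosis 4 of 12 were lower and 0 higher (median 0.09), where 21.9% and 16.6% of all genes were. The lower ones were led by Ccng1 (-1.48, SE 0.21, limma adjusted p = 2.58e-04), with Tnfrsf10b (-0.79) and Phlda3 (-0.75). Tnfrsf10b lost its call under 8 of 26 other settings and Phlda3 under 14, among them the slide as a fixed block (limma adjusted p = 0.088). The median and the calls pointed in different directions here, and cyclic loess gave 5 higher and 1 lower. The defining p53 target Cdkn1a was at 0.38 (95% interval -0.06 to 0.83).

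Enzymes and readers of RNA cytosine-5 methylation other than Nsun2 were lower in 3 and higher in 1 of 7 tested cases (median -0.30). Of all genes 21.9% were lower and 16.6% higher. Nsun7 was higher, at 6.78, 7.31 and 8.07 on KO49 arrays and 5.96, 6.45 and 6.91 on WT15 arrays (0.97, SE 0.23, limma adjusted p = 0.00633), with a small overlap. Nsun5, a methyltransferase of ribosomal RNA, stood at 8.32, 9.07 and 9.64 on KO49 arrays and 9.81, 10.37 and 10.42 on WT15 arrays (-1.23, SE 0.24, limma adjusted p = 0.00173). Trdmt1 (Dnmt2), a transfer RNA methyltransferase, differed by -1.16 (limma adjusted p = 0.0194, 2 of 4 probes, not called after cyclic loess), and Alyref, which binds methylated messenger RNA for export, by -0.88 (limma adjusted p = 0.0105). Nop2, Nsun4 and Ybx1 were not called.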

How the data were processed

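Testis RNA was hybridised to 24 Illumina mouse bead arrays after biotin labelling, per the labels' protocols. The authors deposited a table of probe intensity values that were not normalized and a table of log2 values, which quantile normalization of those intensity values returned to within 3.62e-05. Detection p-value columns were empty and were not used. The probes' positions and the knock-out line of each sample were not given in the sources used here.

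Intensity values were background-corrected by normexp on 946 of 956 control rows (those under 400), offset 16, quantile normalized over the 24 arrays and put on the log2 scale (limma 3.58.1 in R 4.3.3). A probe was above background where fewer than 1% of those control rows were brighter (0.01 as a share). The brighter share of 0.5 of 45278 probes, 22639, was tested. Each contrast was fitted by limma on its own 12 arrays, two-sided, with Benjamini-Hochberg adjustment over all tested probes and a threshold of 0.05. Above or below both WT ages means that both contrasts passed with the same sign. A gene was read by its brightest tested probe (12166 genes), and levels were compared only within a probe. Of the probes 34885 had 1 gene symbol, 18 several and 10375 none, and 34807 symbols were matched to the GRCm38.p6 annotation. A gene not above background on any array of a group has a bound only ("at least"): the brighter group's mean against the lowest signal above background. The fit was tested on simulated data.

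Of 391 entries in 23 gene lists, 355 were on the array and 307 were tested. Members and lists were chosen with earlier results of these data known. Genes named were Nsun2, the 10 largest rises and falls, the 10 ranked highest above and below both ages, and up to 3 called genes per list and direction, passing over unnamed gene models. Other list members were named after their values were seen. Alternatives were other fits, blocks, weights, background corrections, scalings and filters, and leaving out each array. The slides (4 of 6 arrays) each held both groups. The number of arrays limits the precision.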

Additional observations from a re-analysis of the deposited data

Results flagged for a closer look

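Of 238 sets of 6 arrays examined, 24 held 1 array far from the other 5. KO49 replicate D was that array in 11 of them and WT15 replicate A in 8. For independent sets chance gives about 1 in 20. These sets share arrays and genes, so 1 odd array can be flagged many times, and the 24 cannot be set against that rate. No explanation was tested.

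KO49 replicate D was low in Ccng1 (7.89, the other KO49 arrays 8.85 to 9.17), Rhox13 (8.34, the others 10.57 to 11.77), Spink2 (11.12, the others 13.52 to 14.85), Tdrd6 (10.52, the others 12.999 to 14.18) and Tdrd7 (11.15, the others 12.40 to 13.09). It was high in Inhba (7.90, the others 5.27 to 6.11). Its list mean was low for cell division (-2.30, the others -0.81 to -0.55), the chromatoid body and piRNA pathway (-1.93, the others 0.21 to 0.91), early meiotic prophase (-3.14, the others -0.72 to -0.10), RNA cytosine-5 methylation (-0.91, the others -0.37 to -0.19) and pachytene and late meiosis (0.065, the others 2.18 to 3.43). KO49 replicate E was high in Piwil4 (6.49, the others 5.84 to 6.02), where it was the 1 KO49 array above background.

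WT15 replicate A was high in Prm1 (10.21, the other WT15 arrays 5.59 to 6.58), Tnp1 (8.69, the others 5.64 to 6.57), Gsg1 (7.06, the others 4.94 to 5.35), Hils1 (6.11, the others 4.73 to 4.89), Cabs1 (5.99, the others 4.66 to 5.01) and Smcp (6.29, the others 5.24 to 5.46). Hils1, Cabs1 and Smcp were not above background on any WT15 array. It was low in Aif1 (6.84, the others 7.59 to 7.89) and in the p53 target list (-0.18, the highest of the others 0.086). WT15 replicate B was high in Klk1b22 (6.97, the others 4.94 to 5.47) and low in Nsun5 (9.81, the others 10.31 to 10.42). WT15 replicate E was high in Inhba (8.37, the others 7.57 to 7.84) and Ptgds (8.33, the others 6.20 to 6.91).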

How the results depend on the processing

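The count of probes called between KO49 and WT15 (8724) stayed within 1.5 times under every alternative run, between 6914 with the replicate block and 12968 with array weights, and between 7076 and 11676 when 1 array was left out. The count inside -1 to 1 (7254) ranged from 6386 to 8154 when 1 array was left out. It was 10274 with array weights, 10035 on the authors' log2 values, 8684 after cyclic loess and 6584 with the replicate block. Probes above both WT ages (224) numbered 397 in the fit of all 24 arrays, 1409 with array weights and 374 after cyclic loess, and between 158 (without KO49 replicate E) and 339 (without KO49 replicate F) when 1 array was left out. Probes below both (267) numbered 575 in the fit of all 24 arrays, 1891 with array weights, 152 after cyclic loess, 167 with the slide as a fixed block and 122 with the replicate block, and between 163 (without KO49 replicate E) and 387 (without KO49 replicate F) when 1 array was left out. The causes were not tested. Leaving out KO49 replicate D and WT15 replicate A together, a setting chosen after seeing the data, gave 10703 called, 198 above and 276 below both. Same-letter arrays correlated between -0.23 and 0.08 and none best with its own letter, so no pairing by letter was seen. The wide spread among KO49 arrays could hide a pairing, so none is excluded. Of 93 named genes run under 26 settings 74 kept their call in all, and 3 more (Nsun2, Klhl14, Tagln) kept it in the 25 settings they could be run under. The other 19 lost it under at least 1, Tdrd7, Phlda3 and Thumpd1 most often, and 0 changed direction.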

Other observations

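Some probes split the arrays of 1 group widely, and these were picked after their values were seen. Syce1, of the synaptonemal complex, stood at 5.58 and 5.26 on KO49 replicates A and E, while the other 4 KO49 arrays ran from 8.80 to 13.09 and WT15 arrays from 10.71 to 11.81. On WT49 replicate D it stood at 5.76, and the other WT49 arrays ran from 11.997 to 12.97. Thumpd1 stood at 4.91, 4.78 and 5.06 on KO49 replicates B, C and F and at 9.81, 10.16 and 11.34 on A, D and E. Spink8, an epididymal gene, stood at 7.81 to 9.22 on KO49 arrays, and on WT15 replicates D and B at 13.36 and 10.99, the other 4 WT15 arrays running from 5.09 to 7.41.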
